A study of Mus musculus with 4 samples.

Results

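The 10 genes described here are Pou5f1, Sox2, Nanog, Zfp42, Esrrb, Klf4, Klf2, Dppa5a, Dppa4 and Lin28a, genes of the mouse pluripotency network whose RNA was read in cells derived from embryonic stem (ES) cells by 5 days of differentiation. They were found by symbol in a table of 31507 RefSeq transcript entries, where they have 16 entries, and for each member the entry with most counts over the 4 libraries was used, which left 10 members among 20701 gene symbols. The table holds 4 RNA-Seq libraries of cardiac progenitor cells (CPCs) at day 5 of differentiation. All 4 came from the mouse ES cell line E14 Tg(Nkx2-5-EmGFP), which carries a green fluorescent reporter under the control of the heart transcription factor gene Nkx2-5, and the cells were sorted for that reporter. The 2 control libraries came from clones with intact Isl1, and the 2 Isl1_KO libraries from Isl1-/- clones made by CRISPR/Cas9 cutting with a pair of guide RNAs. Each library stands for 1 ES cell clone, so clone and genotype cannot be told apart within a library. The p-values below rest on a spread pooled over the 2 pairs, which was very unequal between them. Before differentiation the ES cells had been grown on mitotically inactive mouse fibroblast feeders. In the paper's directed protocol, 1 of 2 it describes, the cells then grew on gelatin for 2 days. They were next aggregated in low attachment dishes, before the sort.

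Pou5f1 (Oct4), Sox2 and Nanog encode the transcription factors at the core of the pluripotency network. Esrrb, Klf2, Klf4 and Zfp42 (Rex1) belong to the naive state that ES cells hold in culture, and Dppa4 and Dppa5a are germline and early embryo genes that ES cells express. Lin28a encodes an RNA-binding protein that blocks the maturation of let-7 microRNAs and that stays on in many embryonic progenitors after the naive genes have been shut off, whereas Sox2, Klf2 and Klf4 are also used outside the ES cell, in neural, endothelial and epithelial cells among others.

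Lin28a is printed first because it was by far the most abundant member and because its messenger carries sites for the microRNAs it holds back. The gene lies at chr4:133559245-133574756 on the minus strand (mm9), and the 3′ UTR of its transcript, of 2775 bases, holds 2 matches to the let-7 seed (CTACCTC, read on the sense strand). The 8 let-7 5p microRNAs in RefSeq all share this seed, bases 2 to 8. In the lines below, capitals mark the seed of the microRNA and its matches in the UTR, which lie at chr4:133561102-133561125 and chr4:133560464-133560487.
mmu-let-7a-5p: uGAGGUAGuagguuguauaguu
mmu-let-7g-5p: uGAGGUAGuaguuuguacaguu
Lin28a, UTR base 909: cacagcctgttgaaCTACCTCatt
Lin28a, UTR base 1547: agatcgccacaaacCTACCTCact
Such a match was present in the 3′ UTR of 11.0% of 11527 tested genes with an annotated 3′ UTR (median length 1232 bases). Among the members it was found in Lin28a and Esrrb, and among 12 further genes of the Lin28 and let-7 axis in 6 (Lin28b, Hmga2, Igf2bp1, Igf2bp2, Igf2bp3 and Trim71). A match is a description of the letters, and mature microRNAs were not measured in these libraries.

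Pou5f1 and Sox2 proteins bind DNA as a pair, and the Nanog promoter is the textbook place where they do so. RefSeq promoters (GRCm38.p6, 250 bases before to 50 after a start) were at hand for 8 members. They were searched on both strands for the octamer core TTTGCAT, the Sox element ACAATG, and both elements 1 base apart in that order. The octamer core was present in 4.63% of 32851 promoters and the Sox element in 12.6%, and the pair in 2 promoters, which are the 2 listed starts of Nanog. Sox2 and Zfp42 hold the octamer core without the Sox element, and the other 5 members in the table hold no octamer core in this window. The stretches are shown because Pou5f1, Sox2 and Nanog are compared as a group below. Capitals mark the pair in Nanog and the octamer core in the other two, and the stretches lie at chr6:122707389-122707452 (plus strand), chr3:34649871-34649927 (plus strand) and chr8:43307163-43307219 (minus strand).
Nanog: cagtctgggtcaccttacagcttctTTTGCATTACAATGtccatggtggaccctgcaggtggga
Sox2: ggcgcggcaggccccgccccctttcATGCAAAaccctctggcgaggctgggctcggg
Zfp42: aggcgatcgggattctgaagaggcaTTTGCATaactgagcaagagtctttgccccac

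The libraries held 8821517 and 9147425 counts in control and 13186109 and 11388333 in Isl1_KO over the kept entries. Levels below are in CPM, the count divided by the library size in units of 1000000 counts after scaling by the trimmed mean of M-values (TMM), and a count of 3 corresponds to 0.231 to 0.341 CPM. Isl1 stood at 35.1 and 35.7 CPM in control and 1.31 and 2.08 CPM in Isl1_KO (log2 fold change -4.39, edgeR adjusted p = 0.00277), as the labels say. The 2 control libraries were far more alike than the 2 Isl1_KO libraries: the chi-square statistic between libraries of a pair, over 12715 genes, was 1.13 times its degrees of freedom in control (p = 3.73e-24) and 18.6 times in Isl1_KO. The biological coefficient of variation, the spread beyond counting error, was 1.26% in control, 16.4% in Isl1_KO and 11.1% over all libraries. The pooled value lies far above that of the control pair, so the p-values do not measure the spread between control clones. Whether the control pair carries the spread between clones was not tested. The edgeR fit called 311 of these 12715 genes at an adjusted p under 0.05 (2.45%), 247 lower and 64 higher in Isl1_KO.

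Which of the pluripotency genes were still present, and how strongly, was read from the authors' RPKM, read counts scaled by transcript length and by library size. Lin28a stood alone at the top with 68.96 and 67.42 RPKM in control and 82.59 and 78.32 RPKM in Isl1_KO, above 98.0% to 98.4% of all genes in each library. Klf4 followed in control with 10.9 ± 0.615 RPKM (SD, n = 2), then Klf2 with 8.38 ± 0.0424, Sox2 with 4.92 ± 0.0566 and Pou5f1 with 2.38 ± 0.141. These 5 genes were separated in control by more than the spread of each pair.

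The other 5 members lay under 1 RPKM in both control libraries. Nanog had 0.49 and 0.62 RPKM and Dppa5a 0.81 and 0.19, so these 2 overlapped. Dppa4 had 0.38 and 0.28 RPKM and Esrrb 0.24 and 0.30, and these overlapped too, while Zfp42 was listed at 0.14 in both. In Isl1_KO the middle of the order was not resolved: Sox2 (3.53 and 6.35) and Pou5f1 (2.50 and 6.41) overlapped in RPKM, with Klf2 (5.42 and 5.13) inside the range of both, and Klf4 (9.35 and 6.52) lay just above all 3. As the libraries are bulk RNA, fewer cells that express a gene and less RNA of it per cell cannot be told apart.

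**Figure D1:**
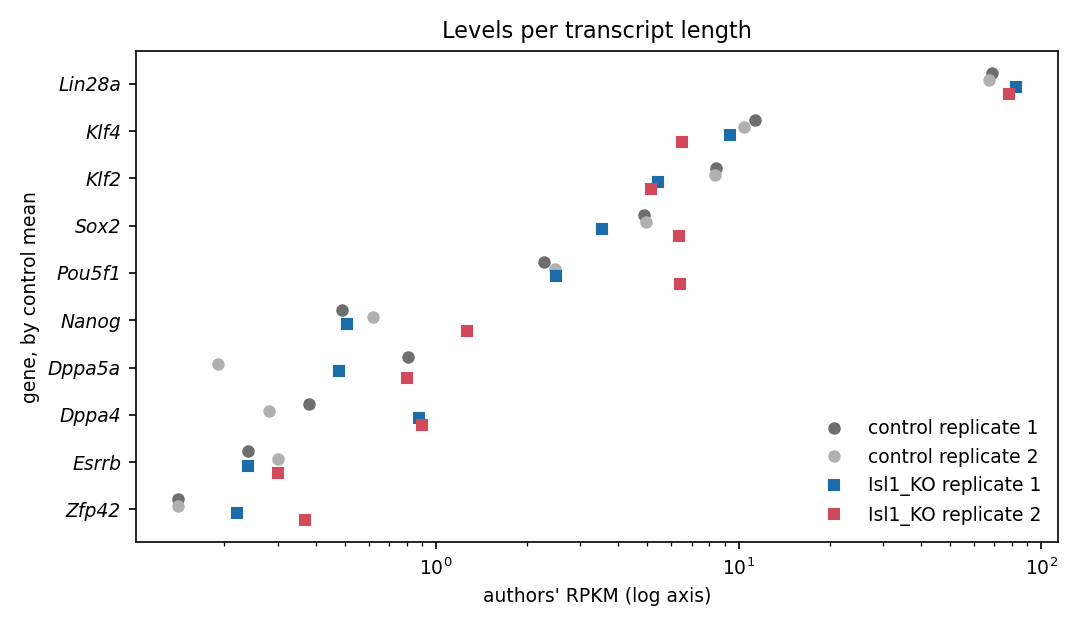
Authors' RPKM (log axis) of the 10 pluripotency genes in each of the 4 libraries, in the order of the control mean; circles are control and squares Isl1_KO. Lin28a is at 67.42 to 82.59 in all 4, and Nanog, Dppa5a, Dppa4, Esrrb and Zfp42 are under 1 in both controls.

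None of the members was called between Isl1_KO and control. Of the 10, 8 passed the filter on low counts, and 0 of these 8 had an edgeR adjusted p under 0.05, beside 2.45% of all genes tested. At an unadjusted p under 0.05 there were 3 of 8 (Klf2, Dppa4 and Lin28a) beside 23.3% of all genes, and DESeq2 called 0 at its adjusted p, beside 4.67% of 12933 genes. Dppa4 had only 9 and 7 control counts and passed the filter partly through its Isl1_KO libraries, which favours a difference. Of the other 7 tested members 2 had an unadjusted p under 0.05. By the criteria of the study (DESeq2 p under 0.05 and an absolute log2 fold change over 0.58) 1 of the 10 passed, Klf2, beside 5.89% of 16855 genes. Both Isl1_KO libraries lay above both controls in 3 of the 8 tested members (Pou5f1, Dppa4 and Lin28a), or in 2 of the 7 without Dppa4, beside 29.1% of genes, and below them in 2 of the 8, beside 29.0%. The median log2 fold change was 0.09 over the 8 members, with a range of -0.69 to 1.39, and -0.0027 over all tested genes. Each of these counts was within 2 genes of what the share over all genes gives for a list of this size, and a missed threshold does not show that a gene was the same in both groups. Without Isl1_KO replicate 1 the count called was 7, beside 49.2% of all genes tested in that fit, and without Isl1_KO replicate 2 it was 5, beside 32.5%, in fits that take their spread from the close control pair.

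**Figure D2:**
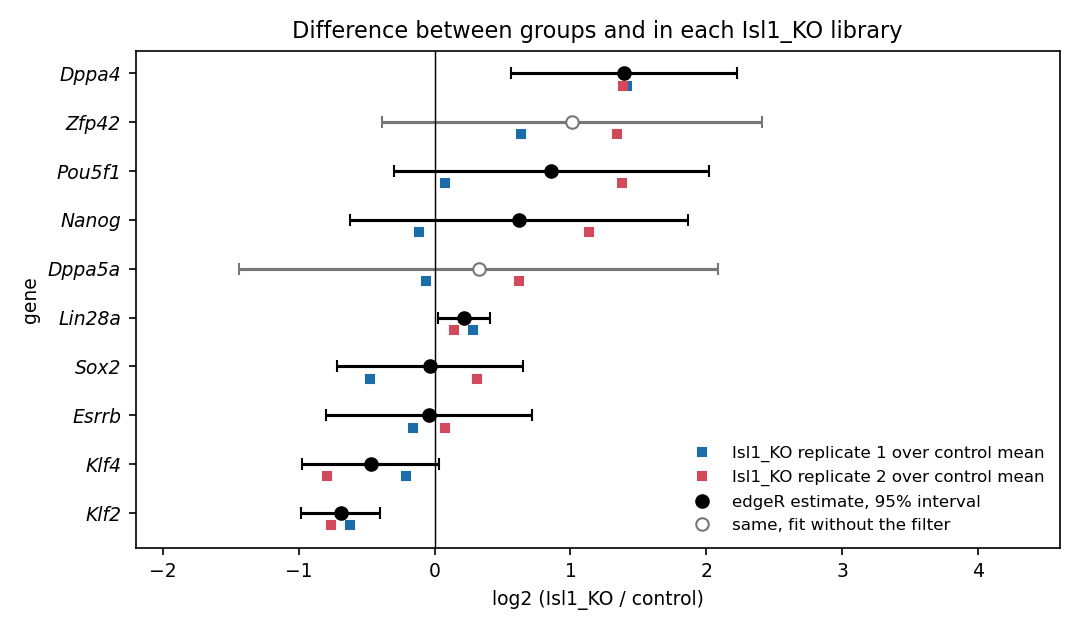
Log2 ratio of Isl1_KO to control for each gene; black circles are edgeR estimates with 95% intervals, open circles come from the fit without a filter on low counts, and squares are single Isl1_KO libraries over the control mean. The intervals of Klf2, Dppa4 and Lin28a leave out 0, and the 2 squares lie far apart for Pou5f1, Nanog and Sox2.

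None of the 3 core factors passed the test between genotypes, and their levels parted between the 2 knockout clones. Pou5f1 (chr17:35642982-35647721) was at 5.45 and 5.91 CPM in the control libraries, then at 6.0 in the first Isl1_KO replicate and at 14.7 in Isl1_KO replicate 2, from 48, 54, 78 and 170 counts. Replicate 2 alone stood out, and replicate 1 lay just above the higher control. Its log2 fold change was 0.86 (SE 0.457, 95% interval -0.30 to 2.02, edgeR adjusted p = 0.324). The value rests on 1 library, being 0.08 without Isl1_KO replicate 2 (adjusted p = 0.835) and 1.37 without Isl1_KO replicate 1 (adjusted p = 8.84e-13). That last fit takes its spread from the close control pair, and without Isl1_KO replicate 1 it passes 6350 genes in all. The second, shorter entry of Pou5f1, which shares reads with the first, had 32, 41, 53 and 117 counts, in the same order. A stretch of 28.6% of the Pou5f1 transcript had a near-identical match elsewhere in the genome. It was at 1 locus, with 95% identity or more over at least 200 bases. Such matches covered 24.6% of the Klf4 transcript (3 loci) and 16.3% of the Lin28a transcript (1 locus), and Sox2, Klf2 and Esrrb had none.

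Nanog (chr6:122657507-122664651) had 1.93 and 2.41 CPM in control, 2.00 in the first Isl1_KO replicate and 4.77 in the second, from 17, 22, 26 and 55 counts. Here replicate 1 lay between the controls, so the groups overlap, and again replicate 2 was the highest library. By edgeR the log2 difference was 0.62 (adjusted p = 0.489, SE 0.490), 1.13 without Isl1_KO replicate 1 (adjusted p = 0.00132) and -0.12 without Isl1_KO replicate 2 (adjusted p = 0.859). Stretches of at least 200 bases that matched the Nanog transcript at 95% identity or more were found at 64 other loci of the genome, 1 of them covering 71.8% of the transcript, so part of its reads could have been placed elsewhere or taken from there.

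Sox2 (chr3:34548927-34551383), which is also a gene of neural and foregut progenitors, was at 21.3 and 21.7 CPM in control, 15.5 in the first Isl1_KO replicate and 26.7 in Isl1_KO replicate 2. The knockout libraries lay on opposite sides of the controls. Its log2 fold change of -0.03 (SE 0.269, 95% interval -0.72 to 0.65, edgeR adjusted p = 0.958) combines 2 opposite values, and it was -0.48 without Isl1_KO replicate 2 (adjusted p = 0.0014) and 0.31 without Isl1_KO replicate 1 (adjusted p = 0.0167).

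Set against each other, the 2 Isl1_KO libraries differed for the core factors by more than counting error. Isl1_KO replicate 2 exceeded replicate 1 by 2.46-fold for Pou5f1 (95% exact conditional binomial interval 1.87 to 3.26, counting error only), by 2.39-fold for Nanog (1.47 to 3.97) and by 1.73-fold for Sox2 (1.44 to 2.08). A ratio at least as high was seen in 0.936% of the 12715 tested genes for Pou5f1, 0.983% for Nanog and 3.21% for Sox2. A ratio of 2 or more was reached by 2 of the 8 tested members and by 1.94% of tested genes. The same ratio between control libraries was 1.08 (0.721 to 1.63) for Pou5f1, 1.25 (0.633 to 2.50) for Nanog and 1.02 (0.827 to 1.25) for Sox2. With 1 library a side these ratios compare 2 clones and have no replicate check.

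**Figure D3:**
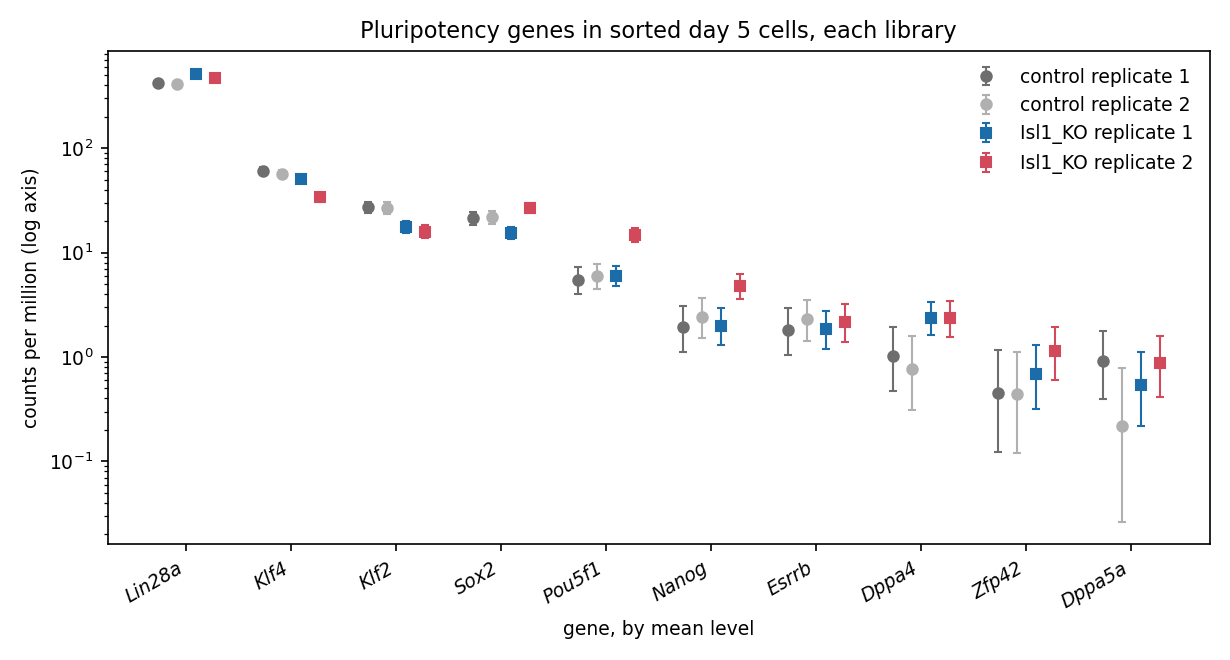
CPM (log axis) of each gene in the 2 control (circles) and 2 Isl1_KO (squares) libraries, with 95% Poisson intervals that cover counting error only. Isl1_KO replicate 2 is the highest library for Pou5f1 (14.7), Nanog (4.77) and Sox2 (26.7), and both Isl1_KO libraries are under both controls for Klf2 and Klf4.

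The Krüppel-like factors had lower values in both knockout libraries. Klf2 (chr8:74842932-74845555), a factor of naive ES cells that endothelial cells also use, was at 27.0 and 26.8 CPM in control and at 17.4 and 15.9 CPM in Isl1_KO. Both knockout libraries lay well below both controls and near each other (ratio 0.910, 95% interval 0.745 to 1.11). The log2 fold change was -0.69 (SE 0.115, 95% interval -0.98 to -0.40), and the edgeR adjusted p of 0.0582 became 0.0445 in the fit without a filter. Without Isl1_KO replicate 1 the adjusted p was 1.23e-08 and without Isl1_KO replicate 2 it was 1.8e-06. Under the other settings that kept all 4 libraries its adjusted p stayed at or under 0.066, while leaving out a control replicate took it to 0.551 (without replicate 2) and 0.571 (without replicate 1).

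Klf4 (chr4:55540013-55545347, minus strand), which also acts in epithelium and smooth muscle, was at 60.8 and 56.1 CPM in control, 50.5 in the first Isl1_KO replicate and 33.8 in the second. The groups did not overlap, but most of the distance came from replicate 2, which was 0.670 times replicate 1 (95% interval 0.590 to 0.761). By edgeR the difference was -0.47 on the log2 scale (adjusted p = 0.236, SE 0.199), -0.21 without Isl1_KO replicate 2 (adjusted p = 0.0212) and -0.79 without Isl1_KO replicate 1 (adjusted p = 2.23e-18). In Isl1_KO replicate 2 the Klf4 level was thus the lowest of the 4 while those of Pou5f1, Nanog and Sox2 were the highest.

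Esrrb (chr12:87702067-87862578), the nuclear receptor of the naive state, was read from 16 and 21 control counts and 24 and 25 Isl1_KO counts, or 1.82, 2.30, 1.84 and 2.17 CPM. The groups overlapped fully, and the log2 fold change was -0.04 (SE 0.298, 95% interval -0.80 to 0.72, edgeR adjusted p = 0.952). Its neighbours had higher values in both knockout libraries: the 88 tested genes within 10 Mb had a median log2 fold change 0.40 above that of all tested genes, by 0.40 in Isl1_KO replicate 1 and 0.41 in replicate 2, with 83.0% of them above the overall median. Around the other 9 members the same difference was between -0.11 and 0.06. Its part in the Esrrb value was not tested.

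Zfp42 (chr8:44380422-44392363, minus strand) and Dppa5a (chr9:78214859-78215984, minus strand) were at the edge of detection and did not pass the filter. Zfp42 had 4 counts in each control library and 9 and 13 in Isl1_KO, or 0.454, 0.438, 0.692 and 1.13 CPM, with both knockout libraries above both controls. In the fit without a filter its log2 fold change was 1.01 (95% interval -0.39 to 2.41, adjusted p = 0.411). Dppa5a had 8, 2, 7 and 10 counts, and the fit without a filter gave 0.32 (-1.44 to 2.08, adjusted p = 0.847), so no difference was detectable at this depth. For Zfp42 1 other locus of the genome matched 78.4% of the transcript and for Dppa5a 1 matched 95.5%, and their counts are uncertain for that reason as well.

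Dppa4 (chr16:48283848-48294405) had the largest difference of the tested members. Its counts were 9 and 7 in the control libraries against 31 and 27 in the knockout libraries, or 1.02, 0.766, 2.38 and 2.34 CPM. The groups were apart and the 2 knockout clones were alike, with a ratio of 0.983 (95% interval 0.565 to 1.70). The log2 fold change was 1.39 (SE 0.327, 95% interval 0.56 to 2.22, edgeR adjusted p = 0.0978), and DESeq2 gave 1.41 (adjusted p = 0.412). Without Isl1_KO replicate 1 or 2 the edgeR adjusted p was 0.0122 or 0.0127, and without control replicate 1 or 2 it was 0.655 or 0.720. Dppa4 passed the filter partly through its Isl1_KO libraries, so its place among the tested genes is not independent of its difference. In the fit without a filter its log2 fold change was 1.41 (adjusted p = 0.102). Its counts are also uncertain because 2 other loci matched more than 50% of its transcript.

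Lin28a was covered by 3744 and 3796 control counts and by 6638 and 5359 Isl1_KO counts, which is 425 and 415 CPM against 510 and 465 CPM. Both knockout libraries lay above both controls, by a small margin. The log2 fold change was 0.21 (SE 0.0752, 95% interval 0.02 to 0.41, edgeR adjusted p = 0.182), a fold change of 1.16. It passed in the fits without Isl1_KO replicate 1 (0.15, adjusted p = 3.38e-05) and without Isl1_KO replicate 2 (0.28, adjusted p = 1.54e-17), and not without control replicate 1 or 2 (adjusted p = 0.750 or 0.804). In this gene Isl1_KO replicate 2 was slightly below replicate 1 (ratio 0.911, 95% interval 0.879 to 0.945). Genes whose profile over the 4 libraries was nearest to that of Lin28a, by Euclidean distance of centred log2 CPM among 10884 genes, were Slc9a3r2, Med10, Hmgn2, Sp2 and Wasf2 (distances 0.018 to 0.025). Pou5f1, chosen for this comparison after its values were seen, had Fgf10, Zfp985, Rftn1, Tnfrsf22 and Mycl as nearest genes (0.057 to 0.21), and Fgf10, a growth factor of the second heart field, was at 45.0, 46.4, 48.7 and 114 CPM.

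Further genes of the network were read from 3 lists. Of 28 further genes of the naive network 18 were tested and 0 were called by edgeR (2.45% of all genes), with 4 at an unadjusted p under 0.05 (23.3% of all genes) and 2 called by DESeq2 (4.67% of all genes). These shares over all genes are the background of the counts in the other lists too. The naive network's median log2 fold change was 0.21, or -0.08 for Isl1_KO replicate 1 alone and 0.42 for replicate 2 alone. The 3 most abundant were Rif1, a telomere and replication timing factor (189, 194, 169 and 247 CPM), Sall4, a zinc finger factor (151, 143, 160 and 171 CPM), and Tbx3, a T-box factor also used in the heart (122, 105, 159 and 261 CPM). Tbx3 was 1 of the 2 genes that DESeq2 called (log2 fold change 0.89, adjusted p = 0.00394; edgeR adjusted p = 0.127).

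Isl1_KO replicate 2 was at least 2-fold above replicate 1 in 5 of the 18 naive network genes, beside 1.94% of all tested genes. Among them were Klf5 (2.21-fold), Dnmt3l (3.85-fold), L1td1 (3.04-fold) and Tdgf1 (6.27-fold), named after their values were seen. Replicate 2 was above replicate 1 by any margin in 14 of the 18, beside 51.6% of all tested genes, so the list was not uniform. Nr5a2, also named after its values were seen, went the other way, at 0.119-fold, from 19 counts in Isl1_KO replicate 1 and 2 in replicate 2. Dnmt3l, the cofactor of de novo DNA methylation in germ cells and ES cells, was at 0.114, 0.547, 1.31 and 5.03 CPM and was the other gene called by DESeq2 (adjusted p = 0.0481). With 1, 5, 17 and 58 counts it passed the filter only through its Isl1_KO libraries and so had to differ. Tdgf1 (Cripto), a Nodal co-receptor of ES cells and early mesoderm, lay below both controls in both knockout libraries, at 39.6, 40.4, 3.31 and 20.7 CPM.

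Of 10 genes of the formative and primed states 9 were tested and 0 were called by edgeR, with 3 at an unadjusted p under 0.05 and 1 called by DESeq2. The median log2 fold change was -0.03, with -0.24 in Isl1_KO replicate 1 and 0.09 in replicate 2. In this list too, replicate 2 was at least 2-fold above replicate 1 in 2 of the 9 tested genes, beside 1.94% of all tested genes. The DNA methyltransferase genes Dnmt3a (182, 187, 156 and 154 CPM) and Dnmt3b (96.0, 96.1, 116 and 202 CPM) were the most abundant, followed by Etv5 (34.2, 35.1, 29.4 and 32.7 CPM). Dnmt3b was highest in Isl1_KO replicate 2, and the gene called by DESeq2, Zic2 (named after its values were seen; adjusted p = 0.0206), was at 9.65, 8.64, 14.3 and 31.5 CPM.

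All 12 genes of the Lin28 and let-7 axis were tested and 0 were called by edgeR, with 5 at an unadjusted p under 0.05 and 1 called by DESeq2. The most abundant were Hmga2, a chromatin protein gene (942, 915, 836 and 563 CPM), and the genes of the RNA-binding proteins Igf2bp1 (570, 585, 656 and 689 CPM) and Igf2bp2 (472, 459, 458 and 440 CPM), all of which hold let-7 seed matches. Their log2 fold changes were -0.41, 0.22 and -0.05, and none passed the test. No gene of this list was 2-fold higher in Isl1_KO replicate 2 than in replicate 1. The gene called by DESeq2 was Myc, named after its values were seen, at 64.5, 61.2, 94.5 and 131 CPM (log2 fold change 0.84, edgeR adjusted p = 0.0754).

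**Figure D4:**
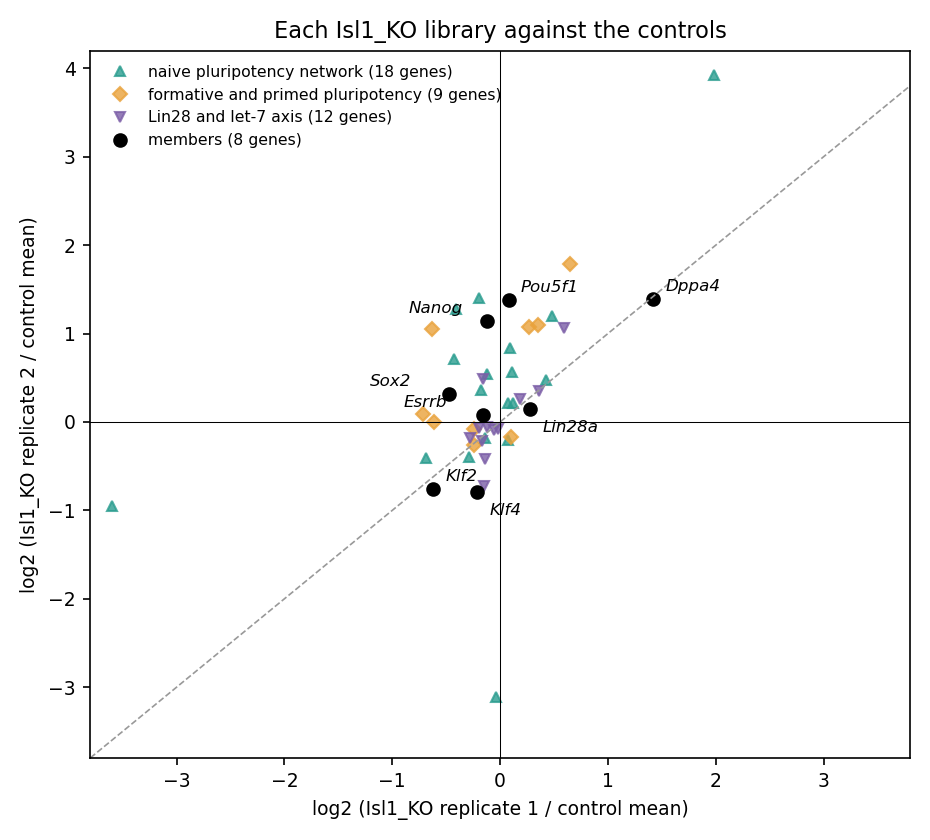
Log2 ratio of Isl1_KO replicate 1 (horizontal) and Isl1_KO replicate 2 (vertical) to the control mean for the 8 tested members (black, named) and the tested genes of 3 network lists; the dashed line marks equal ratios. Pou5f1, Nanog and Sox2 lie above the line, Dppa4 on it at 1.41 and 1.39, and of the Lin28 and let-7 axis Lin28b (-0.15 and 0.48) above it and Hmga2 (-0.15 and -0.72) below it.

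Markers of other cells were read in the same libraries, since sorted cells may hold more than 1 type and feeders were used before differentiation. Among 10 cardiac progenitor markers edgeR called 6 lower in Isl1_KO (Isl1, Tnnt2, Mef2c, Tbx5, Nkx2-5 and Hand2). Isl1 is the gene that was knocked out, so its own difference was set by the design. It is included in every count and sum given for this list. There were 9 at an unadjusted p under 0.05, and DESeq2 called 8. Both Isl1_KO libraries lay below both controls in 9 of the 10, beside 29.0% of all tested genes. The summed level of the 10 markers was 1440 and 1443 CPM in control and 712 and 717 CPM in Isl1_KO. Within this sum single markers differed between the knockout clones in both directions, from 0.590-fold for Tnnt2 (95% interval 0.453 to 0.765, replicate 2 over replicate 1) to 1.49-fold for Kdr (1.41 to 1.57; Kdr was named after its values were seen). Nkx2-5 itself, whose reporter was the basis of the sort, was at 21.1 and 19.8 CPM in control and 4.77 and 4.34 CPM in Isl1_KO. In the other 5 lists 1 marker was called, Sycp3, a meiotic chromosome gene (4.2, 3.83, 9.45 and 9.11 CPM, log2 fold change 1.21, edgeR adjusted p = 0.0466). It was 1 of 7 germ cell markers tested of 10 (4 at an unadjusted p under 0.05, 1 called by DESeq2), and these summed to 151 and 149 CPM in control and 170 and 124 CPM in Isl1_KO. The germ cell markers Kit (108, 107, 124 and 75.0 CPM) and Prdm1 (23.8, 23.3, 18.9 and 13.6 CPM) had their lowest level in Isl1_KO replicate 2. In contrast, Tfap2c (6.47, 6.24, 8.92 and 15.4 CPM) was highest there. Both Isl1_KO libraries lay above both controls in 5 of the 10 germ cell markers. Among the 7 tested germ cell markers it was 4, beside 29.1% of all tested genes. The list's median log2 ratio to control was 0.49 in Isl1_KO replicate 1 and 0.64 in replicate 2. Nanos3, a defining germ cell gene, had 0 counts in both controls and 1 and 2 in Isl1_KO. Tfap2c and Nanos3 were named after their values were seen.

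The summed levels of the endothelial and of the fibroblast and feeder markers differed most between the knockout clones. The 10 endothelial markers summed to 209 and 215 CPM in control, 205 in the first Isl1_KO replicate and 125 in the second. Of these 10 markers 0 were called (5 at an unadjusted p under 0.05, 1 by DESeq2). Among the 5 were Emcn (15, 10, 0 and 0 counts) and Cldn5 (19, 19, 8 and 2 counts), both named after their values were seen. Emcn and Cldn5 passed the filter only through their control libraries, where they were higher. Pecam1 was at 53.9, 56.6, 75.0 and 57.0 CPM, Tek at 56.2, 57.9, 33.9 and 16.1, and Eng at 27.6, 29.1, 39.0 and 22.3. The 10 fibroblast and feeder markers summed to 1796 and 1784 CPM in control, 1223 in the first Isl1_KO replicate and 630 in the second, with 0 of 10 called (4 at an unadjusted p under 0.05, 1 by DESeq2), among them Col1a1 (925, 910, 603 and 328 CPM), Postn (307, 313, 253 and 88.2 CPM) and Fbln1 (204, 205, 203 and 141 CPM). Both lists were thus lowest in the library in which Pou5f1, Nanog and Sox2 were highest and Klf4 and Klf2 lowest. The part of such cells in the values of these 5 genes was not tested.

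Of 10 neural progenitor markers 3 were tested and 0 were called (1 at an unadjusted p under 0.05, 0 by DESeq2); Nes was at 216, 216, 247 and 166 CPM, Pax6 at 3.29, 2.84, 1.38 and 1.30, and Fabp7 at 2.16, 2.84, 1.92 and 1.47. The sum over the 10 markers, 224, 224, 251 and 170 CPM, was nearly all Nes. It was lowest in Isl1_KO replicate 2, where Sox2 was highest. Pax6 and Fabp7 lay below both controls in both Isl1_KO libraries. The part of neural cells in the Sox2 value was not tested. Of 10 endoderm markers 9 were tested and 0 were called (2 at an unadjusted p under 0.05, 0 by DESeq2), with a sum of 224, 223, 201 and 208 CPM. Cldn6 was at 81.8, 83.6, 64.7 and 74.4 CPM, Epcam at 56.1, 56.0, 56.7 and 71.1, and Ttr at 30.3, 31.1, 31.2 and 8.85.

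**Figure D5:**
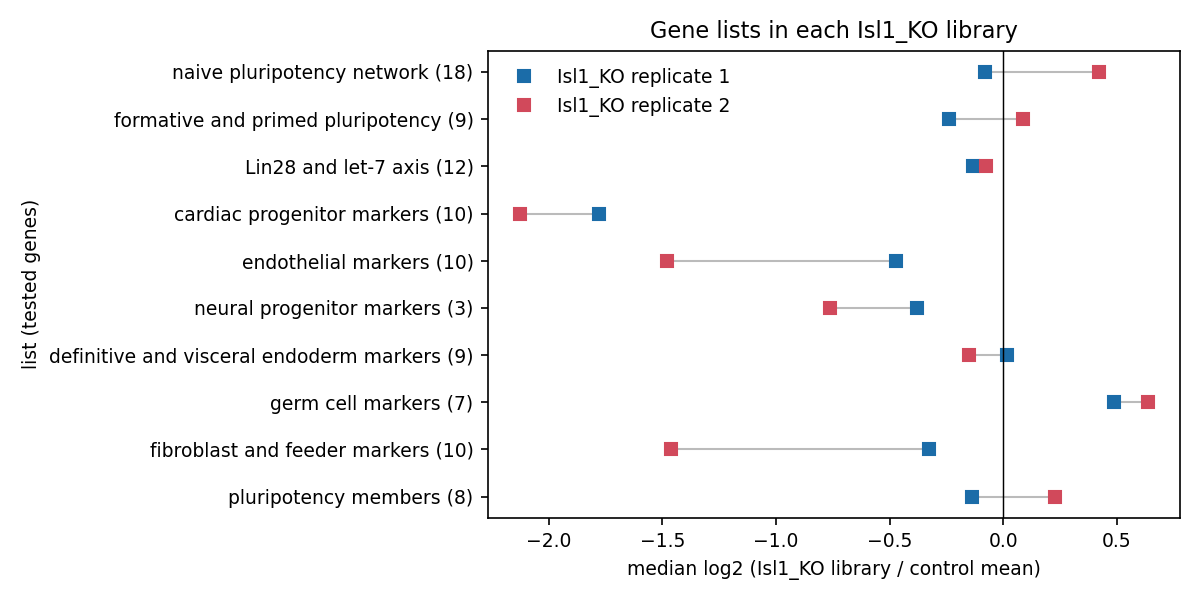
Median log2 ratio of each Isl1_KO library to the control mean over the tested genes of each list (number in brackets). The naive network is at -0.08 in replicate 1 and 0.42 in replicate 2, the members at -0.14 and 0.23, and the fibroblast and feeder markers at -0.33 and -1.46.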

How the data were processed

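RNA-Seq (TruSeq stranded mRNA, NextSeq500) was done by the authors on 4 libraries. They aligned reads to mm9 with STAR (introns of 20 to 500000 bases) and counted exon reads per RefSeq transcript with HOMER on both strands, so a gene and an antisense partner cannot be told apart (Gm13061 overlaps exons of Lin28a on the other strand and is not listed in the table); aligner versions are not given in the sources used here. The deposited raw counts are the basis of all tests, and the RPKM were computed by the authors with edgeR. The same table holds the authors' own DESeq2 comparison (base mean signal, log2 fold change with its error, Wald score, p-value and adjusted p-value), which was not used. The series' design text speaks of a knockdown, but titles and genotypes name a knockout and were followed.

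One entry per symbol was kept (56.4% to 57.8% of the table's counts, as transcripts of a gene share reads). edgeR 4.0.16 in R 4.3.3 was run with TMM scaling, filterByExpr, the quasi-likelihood F test and Benjamini-Hochberg adjustment over all 12715 tested genes. It was also run on simulated counts with the same spread in all libraries. That run cannot check the fit under the unequal spread of the control and Isl1_KO pairs. DESeq2 1.42.0 served as the alternative test and for the study's criteria. An exact permutation test of 2 against 2 libraries cannot go below p = 0.333 and was not used. Replicates were the 2 clones of a genotype. Gene positions come from GENCODE vM1 (NCBIM37), copies from megablast (BLAST+ 2.17.0), and promoter and microRNA sequences from RefSeq. Intervals of counts and ratios cover counting error only, since reads carry no molecular identifiers.

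The members and gene lists were chosen with earlier results of these data known. Named were all 10 members, from each list the genes past the adjusted threshold (at most 6) and, where fewer than 3 passed, also the most abundant up to 3 named in all, and the 5 genes nearest in profile to the member with the most counts; other genes whose levels are given are marked as named after their values were seen. Alternatives were DESeq2 size factors, DESeq2, no filter, at least 10 counts in every library, the replicate block, leaving out each library, and all transcript entries as features.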

Additional observations from a re-analysis of the deposited data

How the results depend on the processing

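The 79 values of the 8 tested members under the alternatives kept their direction and their side of the threshold in 63 cases, while 13 passed the threshold and 4 changed sign, 1 of which (Sox2 without Isl1_KO replicate 1) did both. The sign changes were Sox2 without Isl1_KO replicate 1 (0.31; -0.48 to 0.31 with each library left out in turn), Nanog without Isl1_KO replicate 2 (-0.12; -0.12 to 1.13), and Esrrb without control replicate 2 (0.14) and without Isl1_KO replicate 1 (0.07; -0.20 to 0.14). With each library left out in turn the members called ranged from 0 to 7, the network genes called from 0 to 32 and all genes called from 27 to 6350 (6350 and 4176 without Isl1_KO replicate 1 and 2). The high counts come from leaving out an Isl1_KO library, when the spread rests on the close control pair and the lone library is assumed to vary like it; without a control library 27 and 29 genes are left. The fits that leave out a library tested 8 to 10 members, 41 to 43 network genes and 12834 to 13104 genes in all. Their counts thus have no common denominator and can only be read beside the share of all genes called in the same fit. The all-gene count of 311 became 604 with DESeq2 (306 shared) and 492 without a filter (311 shared). Without a filter 1 member (Klf2) and 1 network gene (Myc) were called, and DESeq2 called 4 network genes. By the study's fold with a DESeq2 adjusted p 0 members passed, and with an edgeR unadjusted p 2 did (Klf2 and Dppa4). At least 10 counts in every library removes Dppa4. With the replicate block 454 genes (294 shared), 0 members and 2 network genes (Dnmt3l and Myc) were called; the replicate numbers are only shared labels, as same-numbered libraries did not deviate together (correlation 0.013 across genes). Nanog, Esrrb, Zfp42, Dppa4 and Dppa5a rest on at most 55 counts in a library, which limits what could be detected.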
